A study of Mus musculus with 12 samples.

Results

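The genes described here are 9 factors of maternal mRNA decay in the mouse embryo, chosen as a list by name: Btg4, Cnot1, Cnot6, Cnot6l, Cnot7, Cnot8, Pabpn1l, Zfp36l2 and Pan2. All 9 were listed in both deposited tables, of 17866 genes in the knockdown table and 19390 genes in the immunoprecipitation table, and all 9 passed the filter on low values in both comparisons. The knockdown table holds 2 control and 2 knockdown libraries of 2-cell embryos, and the immunoprecipitation table holds 2 libraries recovered with an anti-His antibody and 2 recovered with IgG. Control embryos (genotype label WT) received RfxCas13d, an RNA-cutting enzyme, as mRNA without a guide, and knockdown embryos (genotype label Eif1ad3_KD) received guide RNA as well. The design text gives this reagent for CF1 1-cell embryos, while the samples' protocol names morpholino oligos with Cas13d protein in oocytes, so the reagent is not settled by the labels. His and IgG libraries both carry the genotype label Eif1ad3_OE: zygotes were injected with in vitro transcribed mRNA of Eif1ad3 with a His tag at 200 ng/uL, and the design text gives 200 overexpressing and 200 control cells per replicate without saying how these map to the antibodies. No untagged or uninjected precipitate was analysed here, so the only background for the His libraries is IgG.

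Growing oocytes store mRNA, and the embryo clears most of it around fertilization and the first cleavages. Clearance begins with shortening of the poly(A) tail by the CCR4-NOT complex, in which CNOT1 is the scaffold, CNOT7 and its paralog CNOT8 are deadenylases of the CAF1 type, and CNOT6 and its paralog CNOT6L are deadenylases of the CCR4 type. BTG4 is an adaptor that joins CCR4-NOT to maternal mRNA in the egg, PABPN1L is an egg poly(A)-binding protein that works with BTG4, ZFP36L2 is a zinc-finger protein that brings CCR4-NOT to AU-rich mRNA, and PAN2 is the catalytic subunit of the PAN2-PAN3 deadenylase, which trims long tails.

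RefSeq's promoter table (build GRCm38.p6; 250 bases before to 50 after a start) matched 6 of the 9 genes. Btg4 and Pabpn1l are shown because they were the members highest in the same single knockdown library, and Cnot6 is shown beside them as a subunit gene with a CpG-rich start. CpG dinucleotides are in capitals.
Btg4, chr9:51115751-51116050, plus strand: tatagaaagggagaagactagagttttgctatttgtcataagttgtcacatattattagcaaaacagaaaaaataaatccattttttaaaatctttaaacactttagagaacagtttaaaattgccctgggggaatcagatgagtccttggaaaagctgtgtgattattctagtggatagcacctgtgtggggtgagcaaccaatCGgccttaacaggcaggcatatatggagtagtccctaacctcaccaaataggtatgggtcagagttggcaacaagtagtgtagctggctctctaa
Pabpn1l, chr8:122622686-122622985, minus strand: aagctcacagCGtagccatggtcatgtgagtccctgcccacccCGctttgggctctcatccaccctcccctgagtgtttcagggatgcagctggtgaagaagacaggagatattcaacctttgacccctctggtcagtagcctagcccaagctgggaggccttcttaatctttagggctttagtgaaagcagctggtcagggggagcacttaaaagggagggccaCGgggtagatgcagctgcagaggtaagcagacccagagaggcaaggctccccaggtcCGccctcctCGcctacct
Cnot6, chr11:49712673-49712972, minus strand: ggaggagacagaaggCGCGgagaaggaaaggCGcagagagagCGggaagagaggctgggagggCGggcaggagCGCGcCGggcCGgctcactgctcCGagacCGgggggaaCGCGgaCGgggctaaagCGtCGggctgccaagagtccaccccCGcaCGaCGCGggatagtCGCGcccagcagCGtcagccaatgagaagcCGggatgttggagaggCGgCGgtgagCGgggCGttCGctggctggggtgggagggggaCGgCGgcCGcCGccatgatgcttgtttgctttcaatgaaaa
The Btg4 region held 1 CpG and the Pabpn1l region 5, against 33 in the Cnot6 region and a median of 7 over 32851 regions of 300 bases. The 3 regions listed for Cnot6l held 31 to 49 CpG, the 4 for Cnot8 held 3 to 30, and the region for Pan2 held 15. The E-box, searched as CANNTG, which reads alike on both strands, was present 2 times in the Btg4 region and 4 times in the Pabpn1l region and absent from the Cnot6 region, and 72.3% of all regions held it. The NOBOX element TAATTG, searched on both strands, was in none of the 3 regions and in 8.0% of all regions. These matches describe the letters of these windows only.

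Values are CPM, the reads of a gene per 1000000 reads of the library total. Library totals ran from 18173916 to 27902514 reads for the knockdown experiment and from 4678563 to 8364126 for the precipitates, so that 3 reads, the level taken as the limit of detection, correspond to 0.108 to 0.165 CPM in the first table and 0.359 to 0.641 CPM in the second. Over the genes tested, Pearson's correlation of log2(CPM + 1) between replicates was 0.962 in controls, 0.906 in knockdown, 0.895 in His and 0.465 in IgG libraries. The IgG libraries therefore stand apart, with 12574 and 12217 listed genes at 0 reads against 5146 and 5313 in His. The targeted gene Eif1ad3 was at 839 and 663 CPM in controls and at 277 and 377 CPM in knockdown libraries (43.5% of the control mean; adjusted p = 0.859 by limma). Of 8 markers of the 2-cell embryo, all were above 1 CPM in the knockdown table. In the His libraries the 3 genes of that list that are switched on at the 2-cell stage (Zscan4d, Zfp352 and Obox3) summed to 70.4 and 83.2 CPM, against 2906 and 2881 CPM in control embryos of the other, separately normalized table. They summed to 1.01 and 27.4 CPM in IgG, where Zfp352 and Obox3 were at 0 reads in replicate A. Cumulus and granulosa cell markers, the cells that surround the egg, summed to 1.76 to 12.6 CPM over the knockdown table (3 of 9 listed) and 0 to 48.9 CPM over the precipitates (7 of 9 listed). Fshr, Inhba, Has2 and Cd44 were at 0 reads in all 4 precipitates. The 48.9 CPM came from Col1a2 alone, with 229 reads in IgG replicate B. Col1a2 also had 12 reads (1.43 CPM) in His replicate A. Foxl2 (0.359 and 2.02 CPM) and Cyp19a1 (0.359 and 0.505 CPM) were detected only in the His libraries.

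The first comparison asks whether the transcripts of these factors changed when Eif1ad3 was knocked down. No member passed the test: 0 of 9 at an adjusted p under 0.05 in limma, where the share of all 13332 genes tested was 0%. At an unadjusted p under 0.05 the count was 1 of 9 for the members, against 5.45% of all genes. edgeR on the reads recovered from the CPM values called 0 members at an adjusted p under 0.05 and 0% of all genes, and DESeq2 called 0 members and 0.113% of all genes. The median log2 fold change of the 9 members was -0.01, beside 0.02 for all genes. In 3 of the 9, Cnot1, Cnot7 and Cnot8, the knockdown libraries did not overlap the controls, while 36.5% of all genes had groups that did not overlap. The labels do not say whether replicates came from separate collections of embryos, so p-values measure only the spread between these libraries, which may be technical. In pooled embryos, fewer cells of a kind and less RNA per cell cannot be told apart.

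**Figure D1:**
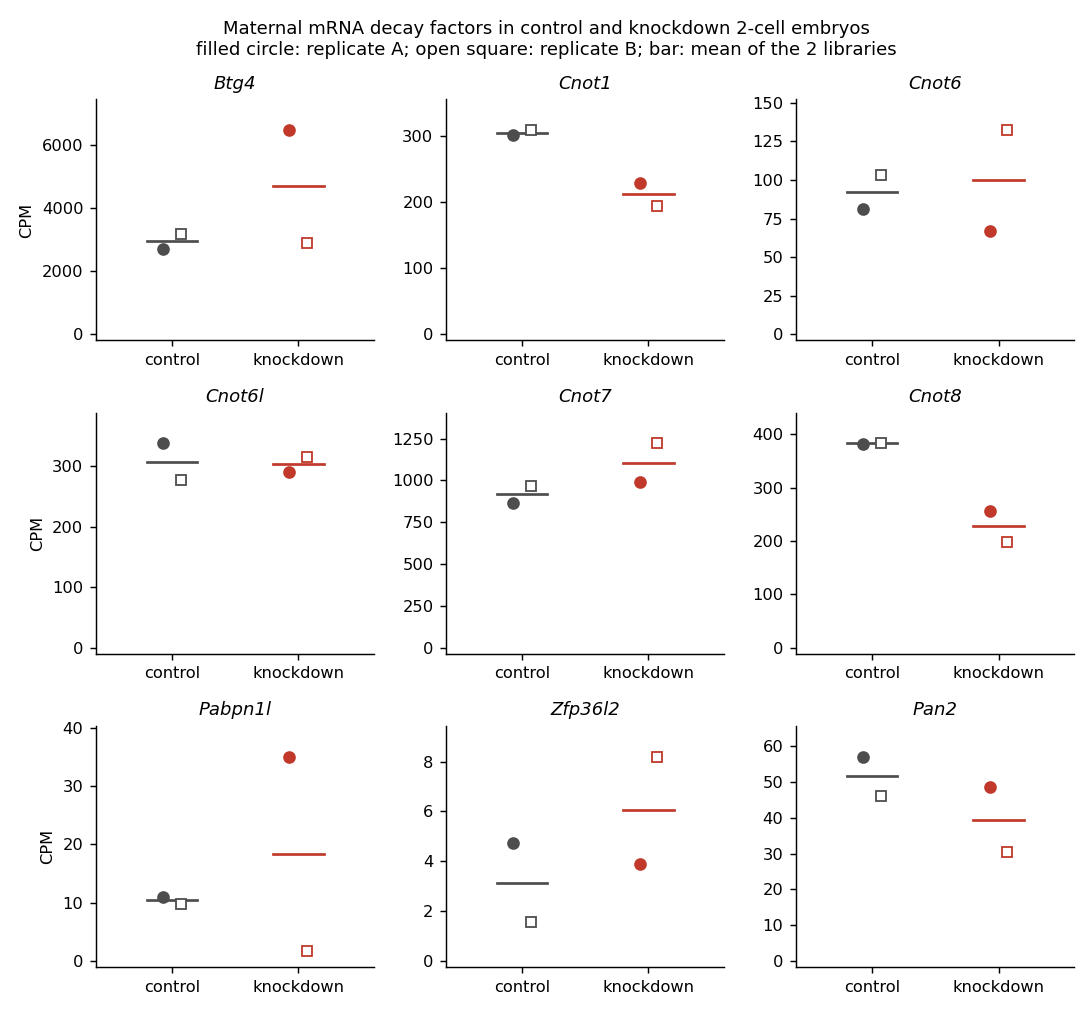
CPM of each of the 9 genes (vertical axis, from 0, own scale per panel) in control and knockdown libraries, with replicate A as filled circles, replicate B as open squares and bars at the mean of the 2 libraries. Both knockdown libraries lie below both controls for Cnot1 and Cnot8 and above both for Cnot7, while Btg4 and Pabpn1l are highest in knockdown replicate A alone.

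Among the catalytic subunits, the CAF1-type paralogs lay on opposite sides of the controls. For Cnot8, control replicates A and B gave 383 and 383 CPM, and knockdown replicates A and B gave 257 and 199 CPM. The controls were nearly equal and both knockdown libraries were lower, at 59.5% of the control mean (383 ± 0.234 against 228 ± 40.9 CPM, SD, n = 2 each). The fitted log2 difference was -0.76 (SE 0.32, 95% interval -1.49 to -0.03), and the adjusted p in limma was 0.859 (0.0440 unadjusted). Cnot7 was at 867 and 968 CPM in controls and at 991 and 1221 CPM in knockdown libraries. Both knockdown values were above both controls, but knockdown replicate A exceeded the higher control by less than the controls differed from each other. The log2 fold change of Cnot7 was 0.26 (95% interval -0.43 to 0.96; adjusted p = 0.922 by limma).

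Because Cnot7 and Cnot8 encode alternative catalytic subunits of the same complex, their ratio within a library was also taken; this ratio was chosen after the values were seen, and it needs no common scale between libraries. The CPM of Cnot7 over that of Cnot8 was 2.27 and 2.53 in controls and 3.86 and 6.14 in knockdown libraries. On the log2 scale the mean was 1.26 ± 0.11 in controls and 2.28 ± 0.47 in knockdown libraries (SD, n = 2 each), a difference of 1.02. That the groups do not overlap follows from Cnot7 lying above and Cnot8 below both controls in both knockdown libraries, so the ratio is a description and no test of it is given. For the CCR4-type pair, Cnot6l over Cnot6, the ratio was 4.18 and 2.69 in controls and 4.32 and 2.39 in knockdown libraries. The knockdown values enclosed the controls, and the log2 means differed by -0.06. CPM values are not divided by transcript length, so a ratio says nothing of which paralog had more molecules, only how the balance differed between libraries. Reads that map to both members of a paralog pair could have been divided or dropped by the counting, whose setting for such reads is not given in the sources used here.

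**Figure D2:**
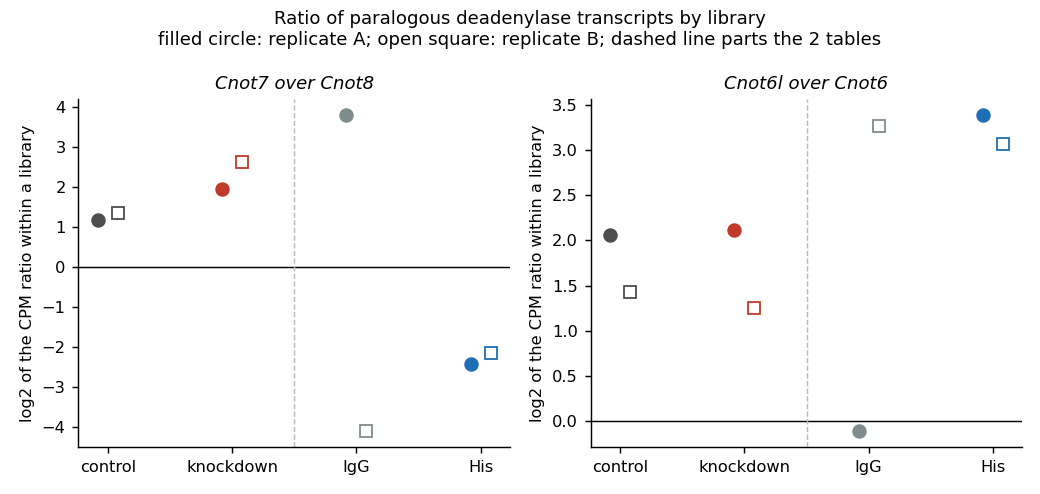
Log2 of the ratio of CPM within each library (vertical axis) for Cnot7 over Cnot8 and for Cnot6l over Cnot6, by group, with replicate A as filled circles and replicate B as open squares. The Cnot7 ratio is higher in both knockdown libraries (1.95 and 2.62) than in both controls (1.18 and 1.34), is negative in both His libraries, and spans from -4.10 to 3.79 in IgG.

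The CCR4-type deadenylases taken singly showed no common direction. Cnot6l, the form described as predominant in mouse oocytes, was at 338 and 277 CPM in controls and at 291 and 316 CPM in knockdown libraries. Both knockdown values lay between the controls, with a log2 fold change of -0.01 and a 95% interval of -0.74 to 0.71. Cnot6 was at 81.0 and 103 CPM in controls and at 67.3 and 132 CPM in knockdown libraries. Here the controls lay between the knockdown libraries, and the log2 fold change of 0.05 had an interval of -0.93 to 1.02; adjusted p in limma was 0.998 for both genes.

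The scaffold gene Cnot1 was at 302 and 309 CPM in controls and at 229 and 195 CPM in knockdown libraries. Both knockdown libraries were lower than both controls, at 69.3% of the control mean (306 ± 5.26 against 212 ± 23.7 CPM, SD, n = 2 each). Its log2 fold change of -0.53 (SE 0.31, 95% interval -1.25 to 0.19) had an adjusted p of 0.859 by limma. Pan2 was at 57.1 and 46.2 CPM in controls and at 48.6 and 30.4 CPM in knockdown libraries. The groups overlapped, and the log2 fold change was -0.41 (95% interval -1.37 to 0.55; adjusted p = 0.911 by limma).

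The egg adaptor genes Btg4 and Pabpn1l were far apart between the knockdown libraries. Btg4 was at 2721 and 3198 CPM in controls, with 6482 CPM for knockdown replicate A and 2911 CPM for replicate B. Replicate A stood alone above the other 3 libraries, which lay within 2721 to 3198 CPM, and the log2 fold change of 0.56 (95% interval -0.388 to 1.504) had an adjusted p of 0.875 by limma. Pabpn1l was at 11.0 and 9.76 CPM in controls (274 and 243 reads), with 35.1 CPM for knockdown replicate A (979 reads) and 1.65 CPM for replicate B (30 reads). The knockdown libraries thus lay on opposite sides of the controls and 21.3-fold apart, and the gap of 3.77 log2 units between them ranked at percentile 99.9 of all genes tested. The fitted log2 fold change of Pabpn1l, -0.21 with an interval of -2.66 to 2.23 (adjusted p = 0.993 by limma), averages over that gap and became positive in 4 other settings, with edgeR (0.73) and DESeq2 (0.71) among them.

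The summed oocyte-expressed markers were also highest in knockdown replicate A. Zar1, Nlrp5, Bmp15 and Gdf9 summed to 1384 and 1223 CPM in controls, with 3613 CPM for knockdown replicate A and 1219 CPM for replicate B. Zar1, an oocyte mRNA-binding protein gene, was at 24.9 and 17.6 CPM in controls, with 114 CPM for knockdown replicate A and 7.32 CPM for replicate B. Pabpc1l, the embryonic cytoplasmic poly(A)-binding protein gene, was at 13.9 and 6.83 CPM in controls, with 53.7 CPM for knockdown replicate A and 3.74 CPM for replicate B. Zar1, Nlrp5 and Gdf9 of the 4 markers, and Pabpc1l, which was named after its values were seen, had the arrangement of Pabpn1l, above both controls in replicate A and below both in replicate B. Bmp15 did not: it was at 845 and 728 CPM in controls and above them in both knockdown libraries, at 2019 and 1055 CPM, so it made up most of the sum in replicate B. Dppa3, a maternal transcript on the list of 8 embryo markers, did not either: it was at 9088 and 6393 CPM in controls and at 7803 and 6026 CPM in knockdown libraries, and with it the sum of all 8 was 13540 CPM in knockdown replicate A against 13378 CPM in control replicate A. The part of these genes in the values of Btg4 and Pabpn1l was not tested. The 3 genes switched on at the 2-cell stage summed to 2124 and 2605 CPM in the knockdown libraries.

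Zfp36l2 was the member with the fewest reads, at 4.72 and 1.57 CPM in controls (118 and 39 reads); knockdown libraries gave 3.87 and 8.20 CPM (108 and 149 reads). The groups overlapped, the controls differed 3.01-fold from each other, and the log2 fold change was 0.81 (95% interval -0.69 to 2.30; adjusted p = 0.889 by limma).

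Leaving out a knockdown library changed which members passed; such a fit takes its spread from the controls alone and assumes that the lone knockdown library varies like them. Without knockdown replicate A, Cnot8 (adjusted p = 0.00639), Cnot1 (0.0481) and Pabpn1l (0.0201) were called lower by limma, with 9% of all genes called lower and 15.1% in either direction. Without knockdown replicate B, Btg4 was called higher (log2 fold change 1.14, adjusted p = 0.000282 by limma), with 2.32% of all genes called higher and 3.23% in either direction. No member was called in both, and without a control library none was called.

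**Figure D3:**
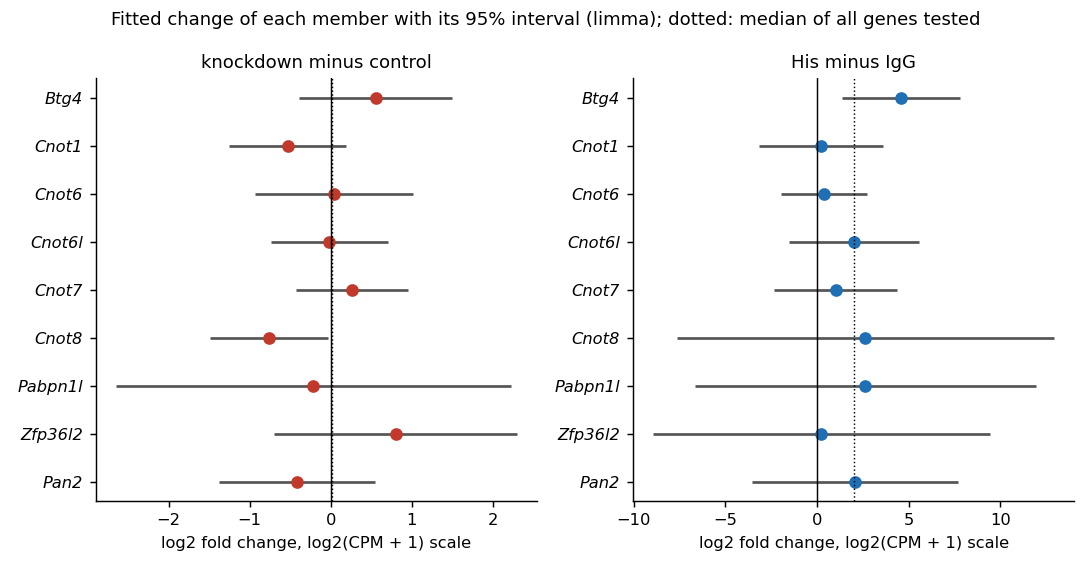
Fitted log2 fold change on the log2(CPM + 1) scale (horizontal axis) of each of the 9 genes with its 95% interval from limma, for knockdown minus control and for His minus IgG; the dotted line is the median of all genes tested, 0.02 and 2.01. The interval stays below 0 for Cnot8 in the knockdown comparison and above 0 for Btg4 in the immunoprecipitation.

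The rest of the pathway was read from 7 lists holding 53 other decay genes, of which 50 were tested in the knockdown comparison. None passed in either direction by limma (0% of all genes), and 3 had an unadjusted p under 0.05; edgeR and DESeq2 called 0 of them as well. The means were higher in knockdown for 25 and lower for 25. Both knockdown libraries were above both controls for 9 genes and below for 10, beside 18.1% and 18.4% of all genes. Without knockdown replicate A limma called 3 of 49 higher and 4 lower, beside 6.1% and 9% of all genes, and without replicate B it called 2 higher and 1 lower, beside 2.32% and 0.913%.

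The gene of each list with the largest difference among those at a mean of 10 CPM or more, none of which passed, was as follows. Among 6 other CCR4-NOT subunits it was Cnot11 (log2 fold change 0.93), with 9.80 and 14.1 CPM in controls and 36.4 and 15.0 CPM in knockdown libraries. Among 7 other deadenylases and partners it was Btg3 (0.95), a BTG-family relative of Btg4, with 14.5 and 29.2 CPM in controls and 44.5 and 37.6 CPM in knockdown libraries. Both had higher values in both knockdown libraries than in both controls. Among the RNA-binding recruiters it was Ythdf3 (0.83), a reader of methylated mRNA, which was at 95.2 and 107 CPM in controls, 103 CPM in knockdown replicate A and 317 CPM in replicate B. Among the poly(A)-binding proteins it was Pabpn1 (-0.78), the nuclear relative of Pabpn1l, with 865 and 685 CPM in controls and 493 and 405 CPM in knockdown libraries. Pabpn1 did not share the split of Pabpn1l between the knockdown libraries, since both of its knockdown values were below both controls. Among the uridylyltransferase list it was Tut4 (-0.14), in the decapping list Lsm1 (0.84), a subunit of the ring that binds shortened tails, and among the exosome subunits Exosc5 (-0.83). Their adjusted p in limma was 0.859, except 0.987 for Tut4.

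**Figure D4:**
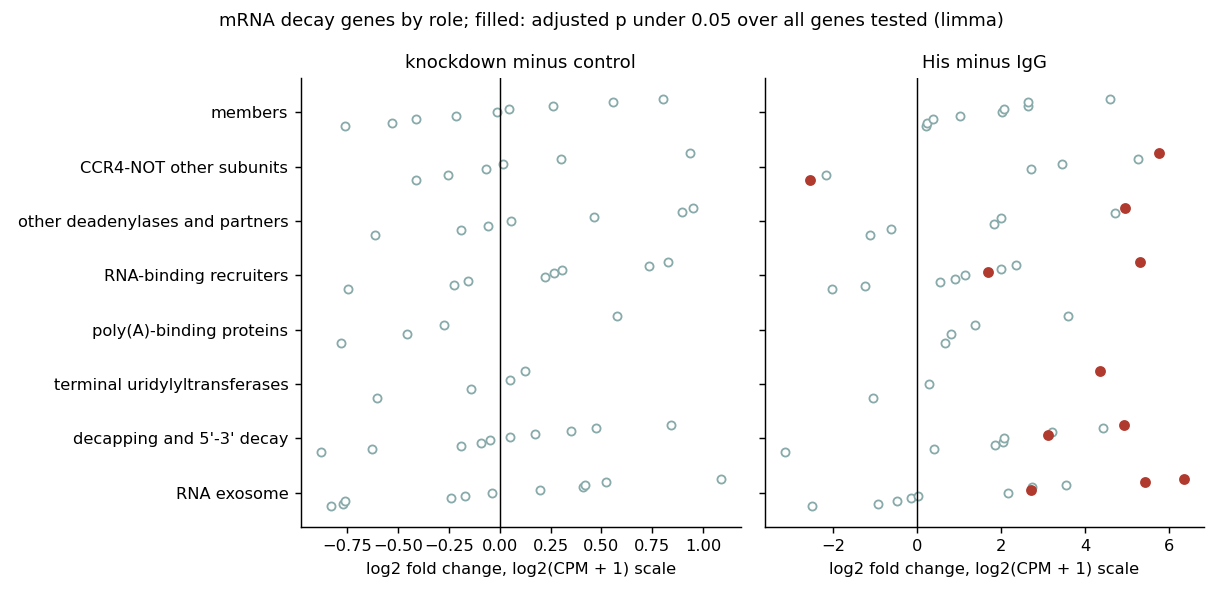
Log2 fold change on the log2(CPM + 1) scale (horizontal axis) of each tested gene by role list (rows), for knockdown minus control and His minus IgG; filled points have an adjusted p under 0.05 over all genes tested. No point is filled for the knockdown, and 11 of 48 decay genes outside the members, and none of the 9 members, are filled for the immunoprecipitation.

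The second comparison asks which transcripts were recovered with His-tagged Eif1ad3 above the IgG background. Again no member passed in limma, 0 of 9, although 36.6% of all 11232 genes tested did (35.7% higher and 0.917% lower in His). At an unadjusted p under 0.05 the count was 1 of 9 for the members, against 44.6% of all genes. edgeR on the recovered reads called 0 members and 0% of all genes, and DESeq2 called 1 member, Btg4, and 49.1% of all genes. The mean of log2(CPM + 1) was higher in His for all 9, with a median log2 fold change of 2.01 beside 2.01 over all genes. The mean of the CPM values themselves was lower in His than in IgG for some members. These were Cnot1 (49.6 against 52.5 CPM), Cnot8 (247 against 411), Pabpn1l (94.2 against 111) and Zfp36l2 (16.8 against 108). The 2 medians depended on the setting, in both directions. They were 0.24 for the members beside 1.56 for all genes with edgeR and -0.03 beside 1.30 with DESeq2. With pseudocounts of 0.1 and 5 they were 2.05 beside 3.66 and 1.52 beside 0.94. Quantile normalization gave 1.76 beside -0.08, no filter on low values 2.01 beside 1.24, and median rescaling 1.65 beside 1.79. Without His replicate A they were 2.14 beside 0.82, and without His replicate B 1.88 beside 0.82. Without IgG replicate A the members' median was 0.77 beside 2.17, and without replicate B it was 2.00 beside 2.42. Cnot1, Cnot6, Cnot8, Pabpn1l and Zfp36l2 had negative values with DESeq2. The groups did not overlap for 2 of 9 members, Btg4 and Cnot6l, against 63.1% of all genes. Both were higher in His, as 54.1% of all genes were, and no member had both His libraries below both IgG libraries, as 9.06% of all genes did. With quantile normalization Cnot1, Cnot6 and Zfp36l2 had negative values.

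**Figure D5:**
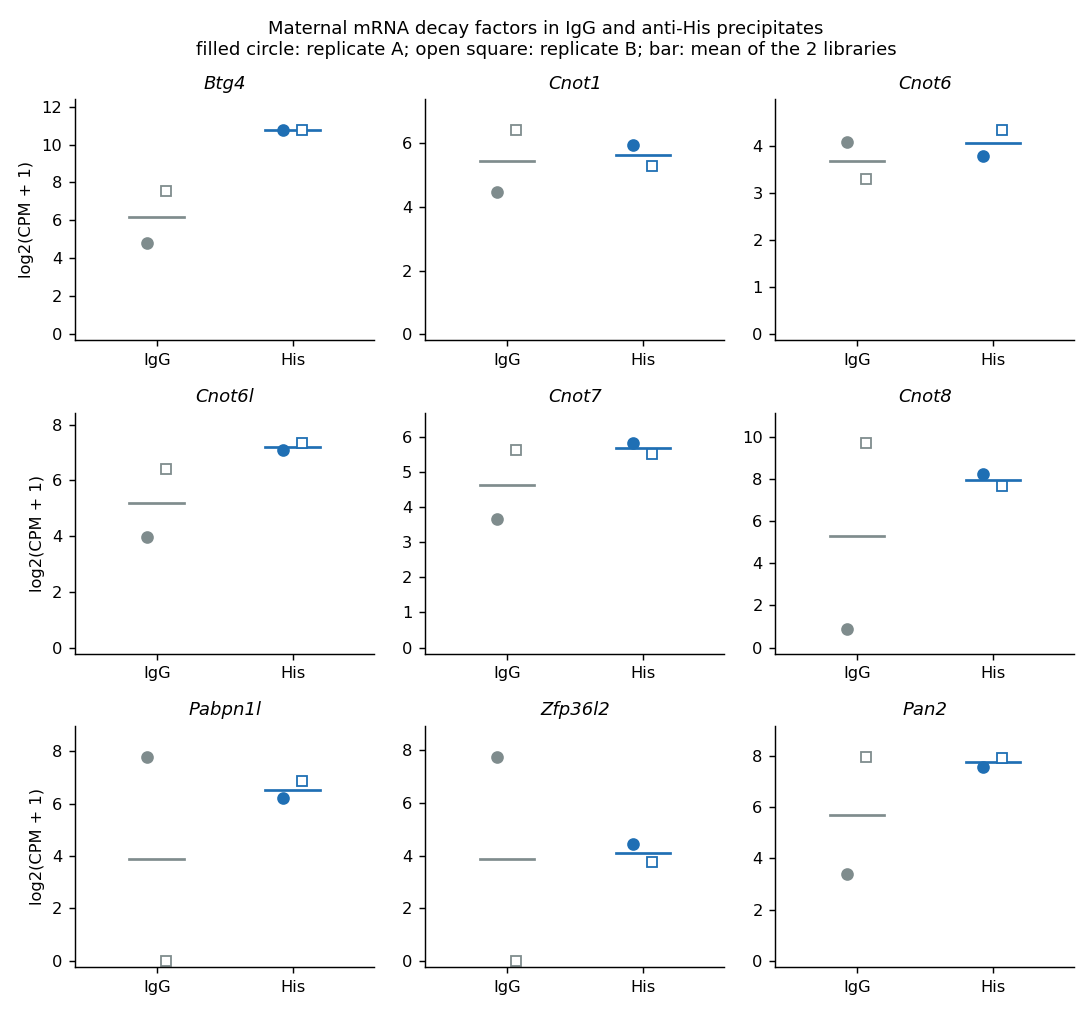
Log2(CPM + 1) of each of the 9 genes (vertical axis, from 0, own scale per panel) in IgG and His libraries, with replicate A as filled circles, replicate B as open squares and bars at the mean of the 2 libraries. The His replicates lie at most 0.69 log2 units apart for every gene, while the IgG replicates are far apart for Cnot8, Pabpn1l, Zfp36l2 and Pan2.

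With both IgG libraries in the fit, Btg4 had the largest log2 difference between His and IgG of the 9 members. Pabpn1l and Zfp36l2 exceeded it without IgG replicate A, and Cnot8 exceeded it without IgG replicate B, as given below. Here and below, a fit lacking an IgG library takes its spread from the His libraries alone. It assumes that the lone IgG library varies like them. The adjusted p of such a fit therefore omits the IgG spread, which exceeded the His spread for every member. For Btg4, His replicates A and B held 1732 and 1720 CPM (14483 and 13619 reads). IgG replicates A and B held 27.0 and 184 CPM (160 and 861 reads). The His libraries were nearly equal and both were above both IgG libraries, 9.38-fold above the higher of them when the His mean is taken. The fitted log2 difference was 4.58 (SE 1.08, 95% interval 1.35 to 7.82), and its adjusted p of 0.0513 in limma was just over the threshold. It passed with median rescaling (adjusted p = 0.0336 by limma, 34.1% of all genes called higher and 35.1% in either direction), with DESeq2 (1.7e-05, 42.4% higher), and without IgG replicate A (3.22, adjusted p = 7.3e-05 by limma, 51.1% of all genes called higher) or B (5.95, 2.6e-05, 55.3% higher). It kept its direction in every setting run. It did not pass with pseudocounts of 0.1 (0.0534) and 5 (0.0550), without a filter on low values (0.0749) or with quantile normalization (0.140) in limma, nor with edgeR (0.0547), nor in limma without His replicate A (adjusted p = 0.991) or B (0.938). Cnot6l also had both His libraries (134 and 160 CPM) above both IgG libraries (14.7 and 84.2 CPM). Its log2 fold change of 2.01 (95% interval -1.55 to 5.57) had an adjusted p of 0.322 by limma, and it was called without IgG replicate A (0.79, adjusted p = 0.0447 by limma) or B (3.23, 0.000287), fits with the same shares of all genes called higher. Its 0.79 without replicate A lay below the median of 2.17 over all genes in that fit.

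For 5 of the 9 members, Cnot1, Cnot8, Pabpn1l, Zfp36l2 and Pan2, both His libraries lay between the IgG libraries, an arrangement found in 27.9% of all genes tested. Cnot8 was at 295 and 199 CPM in His, at 0.844 CPM in IgG replicate A (5 reads) and at 821 CPM in IgG replicate B (3840 reads). The IgG replicates of this gene were 8.80 log2 units apart, and the fitted change of 2.64 had a 95% interval of -7.66 to 12.95. Without IgG replicate A the change of Cnot8 was -1.76 (adjusted p = 0.00164 by limma, 18% of all genes called lower and 69.1% in either direction), and without replicate B it was 7.04 (adjusted p = 4.7e-05 by limma, 55.3% called higher and 70% in either direction), so 1 library decided its direction.

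Pabpn1l and Zfp36l2 had the opposite arrangement in IgG. Pabpn1l was at 72.3 and 116 CPM in His, at 221 CPM in IgG replicate A (1311 reads) and at 0 reads in replicate B. Zfp36l2 was at 20.9 and 12.6 CPM in His, at 216 CPM in IgG replicate A (1279 reads) and at 0 reads in replicate B. Set against 3 reads in replicate B (0.641 CPM), IgG replicate A was at least 345-fold higher for Pabpn1l and at least 337-fold higher for Zfp36l2. The change of Pabpn1l was 6.53 without IgG replicate A and -1.26 without replicate B, and that of Zfp36l2 was 4.11 and -3.65, each with an adjusted p under the threshold in limma (0.000268, 0.0152, 0.00488 and 0.000617). In these fits 51.1% of all genes were called higher without replicate A and 14.7% lower without replicate B. With all 4 libraries their adjusted p in limma was 0.630 and 0.972.

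Pan2 was at 189 and 240 CPM in His, at 9.45 CPM in IgG replicate A and at 249 CPM in IgG replicate B. Its change of 2.07 (adjusted p = 0.525 by limma) became -0.22 without IgG replicate A (0.429) and 4.36 without replicate B (9.5e-05, 55.3% of all genes called higher). Cnot1, Cnot7 and Cnot6 had smaller gaps between the IgG libraries than Pan2. Cnot1 was at 61.0 and 38.3 CPM in His and at 20.9 and 84.0 CPM in IgG, Cnot7 at 55.0 and 44.7 CPM in His and at 11.6 and 47.9 CPM in IgG, and Cnot6 at 12.8 and 19.1 CPM in His and at 15.9 and 8.76 CPM in IgG. These 3 overlapped between the groups, with log2 fold changes of 0.19, 1.03 and 0.37 and adjusted p of 0.933, 0.602 and 0.793 in limma; without IgG replicate B, Cnot7 was called (2.00, adjusted p = 0.00690 by limma, with 55.3% of all genes called higher), and without replicate A it was not (0.05, adjusted p = 0.914).

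Over the 9 members, the gap between IgG replicates had a median of 2.72 log2 units and exceeded 1 unit in 8, against a median of 0.97 over all genes and 49.7% of them above 1 unit. Between His replicates the median gap was 0.54 for the members and 0.50 for all genes; no member differed by more than 1 unit (24.9% of all genes did), and the largest gap was 0.69 for Zfp36l2. IgG replicate B was above replicate A for 6 of the 9 members and for 40.1% of all genes. No member was at 0 reads in both IgG libraries, as 28.2% of all genes tested were. Such genes have an IgG gap of 0 by construction and lower the all-gene median and share given above. The members and all genes are therefore not compared on a like footing for the IgG gap.

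Of the 53 other decay genes, 48 were tested between His and IgG. By limma 10 passed as higher in His and 1 as lower, beside 35.7% and 0.917% of all genes; edgeR called 0 of them and DESeq2 called 13 higher and 7 lower, beside 42.4% and 6.65% of all genes. Without IgG replicate A the limma counts were 23 higher and 14 lower, beside 51.1% and 18% of all genes, and without replicate B 29 higher and 7 lower, beside 55.3% and 14.7%. Without His replicate A or B the count was 0 of 38, beside 0.0889% and 0.0888% of all genes. Cnot3, a CCR4-NOT subunit without catalytic activity, was lower in His, at 189.5 and 209.8 CPM against 1005 and 1382 CPM in IgG (log2 fold change -2.56, SE 0.28, adjusted p = 0.0105 by limma). Cnot4, a ubiquitin ligase that associates with the complex, was at 0 reads in both IgG libraries and at 42.9 and 65.8 CPM in His (adjusted p = 0.00997 by limma). Parn, a poly(A)-specific exonuclease, was at 28.0 and 61.6 CPM in His and at 0.338 and 0.427 CPM in IgG (adjusted p = 0.0139 by limma).

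Those that passed as higher were also Cpeb1 and Mex3b among the recruiters, Tent2 in the uridylyltransferase list, Patl2 and Dcp1b in the decapping list, and Exosc3, Exosc8 and Exosc9 of the exosome. Cpeb1, which controls polyadenylation of stored oocyte mRNA, was at 24.2 and 82.5 CPM in His, at 0.338 CPM in IgG replicate A (2 reads) and at 0 reads in IgG replicate B. Patl2, an oocyte translational repressor, was at 27.5 and 31.2 CPM in His and at 0 reads in both IgG libraries. Exosc8 was at 98.0 and 90.3 CPM in His and at 0.338 and 0 CPM in IgG. Among the poly(A)-binding proteins none passed, and the largest change was 3.58 for Pabpn1 (adjusted p = 0.278 by limma).

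The His libraries can be set beside control embryos of the other table, with the limit that the tables were normalized separately and come from embryos treated differently, so no test was made. For the 7263 genes whose control embryos reached 10 CPM, the mean log2 level in His minus that in control embryos had a median of -0.70 and quartiles of -2.18 and 0.84. Btg4 (-0.77), Cnot8 (-0.66) and Cnot6l (-1.06) were near that median. Cnot7 stood at -4.18, percentile 5.25 of those genes, with 55.0 and 44.7 CPM in His against 867 and 968 CPM in control embryos. Cnot1 (-2.64) and Cnot6 (-2.47) were also below the lower quartile. Pabpn1l (3.03, percentile 96.7) and Pan2 (2.03, percentile 89.7) were above the upper quartile. The ratio of Cnot7 to Cnot8 restates these same values and adds no separate evidence. It was 0.186 and 0.225 in His against 2.27 and 2.53 in control embryos, while IgG replicates A and B gave 13.8 and 0.0583. In the same measure the oocyte-expressed markers Zar1, Gdf9 and Bmp15 stood at 5.25, 2.86 and 1.64 and Nlrp5 at -1.41, below the median of all genes, while the 2-cell-activated Zscan4d, Zfp352 and Obox3 stood at -5.48, -5.04 and -5.23; their part in the members' positions was not tested.

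Genes whose pattern was most like that of Btg4 were sought among 5314 genes at a mean of 10 CPM or more in each table, by Pearson's correlation of log2(CPM + 1), taken from each table's mean, over the 8 libraries. Among the highest were Rnf24 (0.994) and Pdlim1 (0.992), and 823 genes were above 0.9. For Cnot1 they were Cd3eap, Gm15455 (0.987 each) and Ciao3 (0.984), with 178 genes above 0.9. These 8 points share libraries and depth, so the values are a description of these libraries.

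Some reads of these genes cannot be assigned by position alone. In RefSeq's models Setd6 and 4930513N10Rik overlap Cnot1, Vps37a overlaps Cnot7 and Gm12248 overlaps Cnot8, among the gene models with values in both tables, and the library kit does not mark strand. Setd6 was at 11.6 and 11.3 CPM in controls and at 26.1 and 26.5 CPM in knockdown libraries, higher where Cnot1 was lower, and at 0 and 0.427 CPM in IgG and 14.8 and 48.9 CPM in His. The noncoding 4930513N10Rik was at 0.385 to 3.58 CPM in the knockdown table, at 95.2 CPM in IgG replicate A, at 0 in IgG replicate B and at 0.478 and 0.884 CPM in His, so it was highest in the IgG library where Cnot1 was lower. Vps37a was at 40.0 and 34.2 CPM in controls and at 37.3 and 44.5 CPM in knockdown libraries, overlapping between the groups, and at 0.338 and 0 CPM in IgG and 4.42 and 1.52 CPM in His. Gm12248 was at 0.241 to 2.84 CPM in the knockdown table and at 0 in the 4 precipitates. Their part in the values of Cnot1, Cnot7 and Cnot8 was not tested.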

How the data were processed

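RNA of mouse 2-cell embryos was profiled in 12 labelled samples, of which 8 were used here. The deposited values are CPM, 1 column per library, made by the authors; per the submitters' processing notes, which give no roles or order, the tools were Trim Galore 0.6.7, FastQC, HISAT2 2.2.1, featureCounts 2.0.1 and edgeR, with build GRCm39. Per the labels' protocols, cDNA was amplified with a Smart-seq2 kit and no molecular identifiers are mentioned; copies made by PCR are then counted as reads, and the floor of 3 reads covers counting error only. In the deposited CPM columns 100% of values were whole multiples of 1 read (tolerance 0.01 read), which gave the library totals; the listed genes held 94.0 to 96.3% of them. The names of 4 further columns of the immunoprecipitation table do not decide between the input and total RNA samples, so these columns were not used and the planned comparisons with input and total RNA were not run.

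For each comparison, limma 3.58.1 (R 4.3.3; eBayes with trend, two-sided) was run on log2(CPM + 1) of the genes reaching 1 CPM in 2 or more of its libraries, with Benjamini-Hochberg adjustment over all genes tested and a threshold of 0.05. Fold changes on this scale understate the change of low genes; an SE is the moderated one of limma, and ± gives the SD of 2 libraries. The script was tested on simulated reads. Alternatives were pseudocounts of 0.1 and 5, no filter, median rescaling, quantile normalization, the replicate letter as a block, the count models of edgeR 4.0.16 and of DESeq2 1.42.0, run on recovered reads (0 and 15 genes called for the knockdown, 0 and 5513 for His against IgG), and leaving out each library. The members, lists and tests were chosen with earlier results of these data known. All members are named; of the other decay genes, those that passed in a list are named, or else the one with the largest change at a mean of 10 CPM or more. Any other gene, such as Pabpc1l, was chosen after its values were seen. Of the 3 genes most like Btg4 in pattern, 1 is not reported here.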

Additional observations from a re-analysis of the deposited data

How the results depend on the processing

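In the knockdown comparison 65 of 72 member values under the settings other than leaving out a library kept their direction and stayed on the same side of the threshold, as did 54 of 72 in His against IgG. Genes called (0 and 4111) became 2 with the replicate block and 15 with DESeq2 in the knockdown, and 0 with quantile normalization (2339 at an unadjusted p under 0.05) and with edgeR (4592; smallest adjusted p 0.0547) in His against IgG; leaving out a library gave 0 to 1894 and 6 to 7679. The labels do not say that a replicate letter marks a shared batch, and whether it does was not settled: same-letter deviations correlated at 0.15 and -0.01. With the replicate block no member of the knockdown comparison was called. Between His and IgG, Btg4 was called (4.58, adjusted p 0.0352 by limma), as were 34.7% of all genes tested.

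The knockdown median of the members (-0.01) was 0.046 with a pseudocount of 5, 0.19 with edgeR, 0.20 with DESeq2 and 0.019 with quantile normalization. Pabpn1l became 0.089 with a pseudocount of 5, 0.73 with edgeR and 0.71 with DESeq2, Cnot6 -0.0070 with median rescaling, and Cnot6l 0.021, 0.0077 and 0.018 with quantile normalization, edgeR and DESeq2. Between His and IgG the median (2.01) was 0.24 with edgeR and -0.031 with DESeq2. With median rescaling, quantile normalization, edgeR and DESeq2 in that order, Cnot1 became -0.16, -0.67, -0.056 and -0.28. Zfp36l2 was -0.64 with a pseudocount of 5 and -0.24, -2.21, -2.93 and -3.22 in those 4 settings. Cnot6 was -2.35 with quantile normalization and -0.031 with DESeq2, Cnot8 -0.64 and -0.84 and Pabpn1l -0.48 and -0.78 with edgeR and DESeq2. The cause was not tested.

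Leaving out 1 library at a time in the knockdown comparison, Btg4 ranged from -0.019 to 1.14, Cnot6 from -0.44 to 0.53, Cnot6l from -0.16 to 0.13, Pabpn1l from -2.10 to 1.67, Zfp36l2 from 0.23 to 1.38, Pan2 from -0.74 to -0.08, Cnot7 from 0.11 to 0.41, Cnot1 from -0.64 to -0.42 and Cnot8 from -0.94 to -0.58. In His against IgG, the members' median ranged from 0.77 to 2.14, Btg4 from 3.22 to 5.95, Cnot1 from -0.78 to 1.17, Cnot6 from -0.019 to 0.77, Cnot7 from 0.05 to 2.00, Cnot6l from 0.79 to 3.23, Cnot8 from -1.76 to 7.04, Pabpn1l from -1.26 to 6.53, Zfp36l2 from -3.65 to 4.11 and Pan2 from -0.22 to 4.36. Each group has 2 libraries, so a lone library was assumed to vary like the other group. Comparisons with input and total RNA were not run.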
